A study of Homo sapiens with 6 samples.

Results

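The genes of ribosome biogenesis and of RNA polymerase I (Pol I) were examined in RPMI 8226 cells, an established human multiple myeloma line derived from malignant plasma cells. The groups compared were 3 arrays of cells given 6 Gy of carbon ions and 3 arrays of cells given 0 Gy, all of the same line, with total RNA taken 1 day after exposure. Of 36 listed genes, 33 were measured, out of 18417 genes on the array with a probe set (the group of probes that reports 1 transcript) annotated to that symbol alone. NOP56 and PPAN share their probe sets with other symbols and GNL3 had none under its symbol, so these were not analysed here. Beside its own probe set, DKC1 has 2 that it shares with other symbols, and those 2 were left out as well. Where a gene had several probe sets, the one with the highest mean over the 6 arrays was taken. Members were taken by gene symbol from a list that was drawn up with earlier results of these data known. All arrays come from 1 cell line, and the labels do not say whether the 3 samples of a dose were separate cultures. The p-values therefore rest on differences among samples that may reflect technical variation alone.

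Ribosomes are assembled in the nucleolus. Pol I, brought to the ribosomal DNA by UBTF and the SL1 complex, transcribes a long precursor RNA, which small nucleolar ribonucleoprotein particles (snoRNPs) chemically modify and which large assemblies of processing factors cut and fold into the 40S and 60S subunits. The transcription factor MYC is a known driver of many of these genes.

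The sequences just upstream of the 6 members that passed the test below are shown so that the reader can see what their promoters hold. They are the 100 bases before the RefSeq transcription start on GRCh38.p14, written 5′ to 3′ on the gene's strand. Capitals mark the letters CACGTG (the E-box bound by MYC with MAX), CCGGAA or its reverse complement TTCCGG (the core of ETS factor sites), and CCAAT or ATTGG (the core of NFY sites). For UBTF the first of 2 listed starts is shown, and for POLR1B the second, which holds a match whereas the first holds none.
UBTF, chr17:44220883-44220982, minus strand: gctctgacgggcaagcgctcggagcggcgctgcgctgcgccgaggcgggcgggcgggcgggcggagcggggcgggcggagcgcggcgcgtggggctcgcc
POLR1B, chr2:112542365-112542464, plus strand: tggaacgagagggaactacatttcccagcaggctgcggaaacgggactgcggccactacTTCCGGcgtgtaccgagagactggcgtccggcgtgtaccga
DKC1, chrX:154762764-154762863, plus strand: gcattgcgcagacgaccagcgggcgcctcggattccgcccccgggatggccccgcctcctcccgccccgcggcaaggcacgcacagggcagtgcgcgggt
UTP18, chr17:51260446-51260545, plus strand: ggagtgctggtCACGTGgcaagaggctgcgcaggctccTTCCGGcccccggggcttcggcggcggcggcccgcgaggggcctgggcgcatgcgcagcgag
UTP20, chr12:101280005-101280104, plus strand: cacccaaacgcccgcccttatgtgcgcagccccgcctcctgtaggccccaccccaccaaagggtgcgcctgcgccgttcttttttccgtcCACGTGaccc
PES1, chr22:30591911-30592010, minus strand: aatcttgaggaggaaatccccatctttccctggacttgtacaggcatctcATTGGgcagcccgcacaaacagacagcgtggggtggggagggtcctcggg
With positions counted from the start, UTP18 holds an E-box at -89 as well as a reversed ETS core, and UTP20 holds an E-box at -10. PES1 has a reversed CCAAT core here and its E-box at 14, after the start, and POLR1B has a reversed ETS core. Neither the stretch of UBTF nor that of DKC1 holds any of the 3 motifs, and that of UBTF is 86% G and C, where the median over the members' windows is 67%.

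After carbon irradiation 4 of the 33 genes fell and 2 rose, or 18.2% of them, where 14.5% of all genes passed the same test (6.35% higher and 8.18% lower). UBTF, which binds ribosomal DNA and helps to recruit Pol I, fell to 70.5% of its unirradiated level. DKC1, the pseudouridine synthase of box H/ACA snoRNPs, fell to 79.8%, and the small subunit processing factors UTP18 and UTP20 fell to 81.9% and 82.5%. POLR1B, the second-largest subunit of Pol I, rose to 128% and PES1, a 60S assembly factor, to 120%. The other 27 did not pass.

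A gene was called changed where its Benjamini-Hochberg adjusted p in limma, over all 18417 genes, was under 0.05. The members' median log2 difference was -0.03, where the median over all genes was 0.04, and the members' quartiles were -0.14 and 0.09. Their median size of difference was 0.124, against 0.118 for all genes. The irradiated arrays lay wholly above the unirradiated ones for 6 members (19.0% of all genes) and wholly below for 7 (15.7% of all genes).

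**Figure D1:**
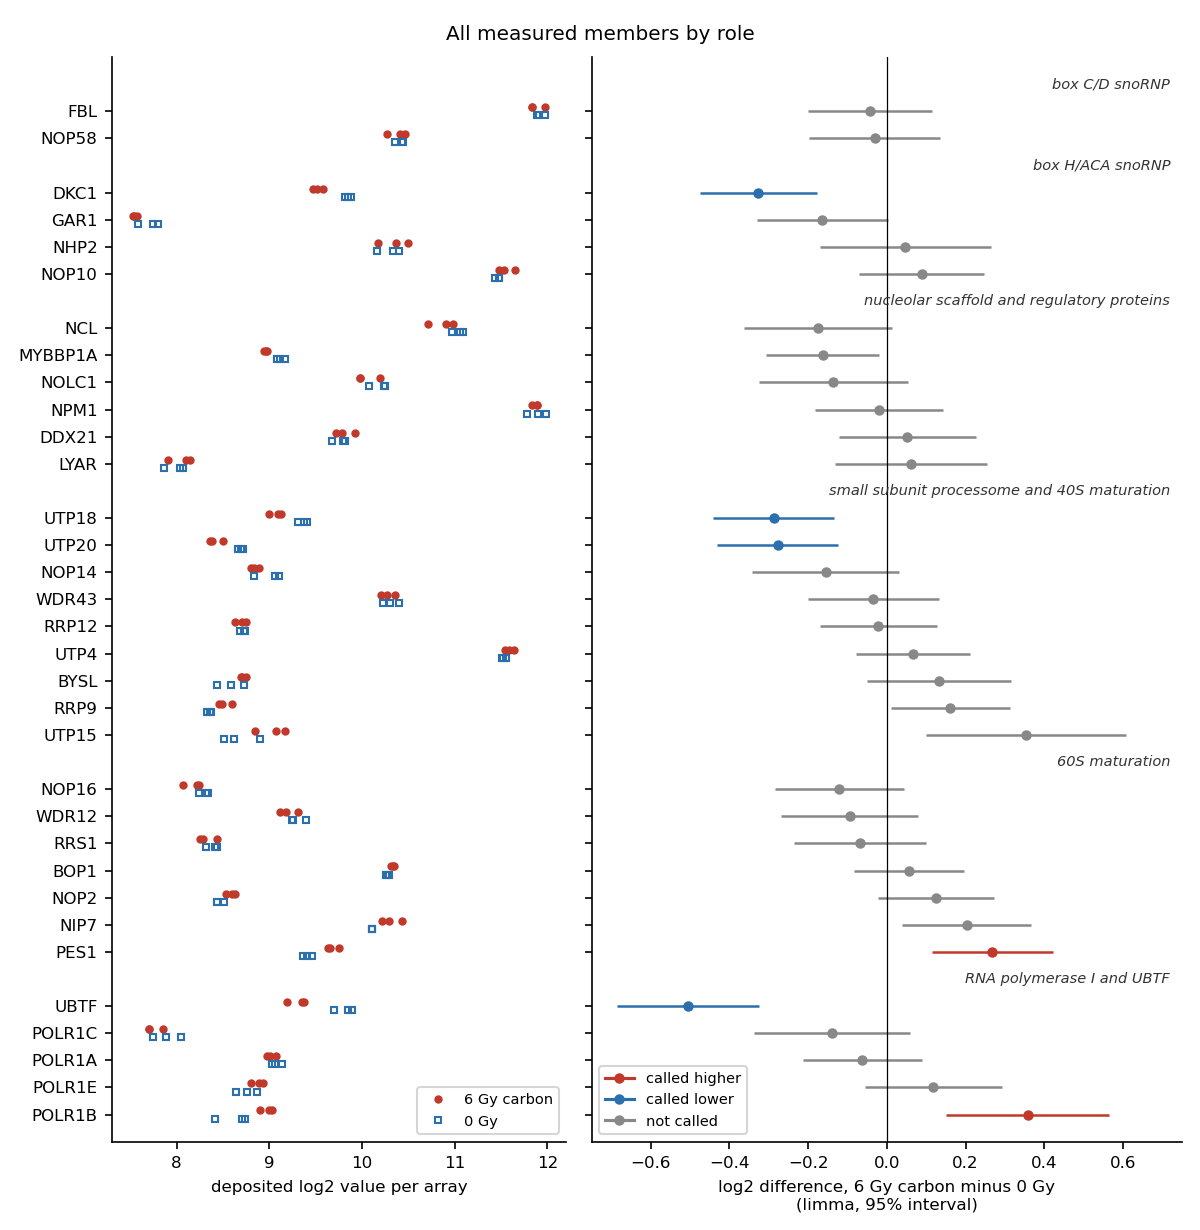
Deposited log2 value of each measured member on each array (left, red circles for 6 Gy carbon, open blue squares for 0 Gy) and its log2 difference with the 95% interval from limma (right), grouped by role. UBTF stands farthest to the left at -0.51 and POLR1B farthest to the right at 0.36, and 27 of 33 members are grey, meaning not called.

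The array medians were 5.66 to 5.72 after irradiation and 5.64 to 5.67 without, and no array stood apart: arrays correlated at 0.996 to 0.998 within a group and at 0.992 to 0.994 between groups. Of 10 plasma cell markers 9 were measured, and 8 of these were bright, with group means from 9.95 to 12.99, whereas SLAMF7 was dim (5.18 in irradiated and 4.63 in unirradiated cells). The summed linear signal of the plasma cell markers was 20899 to 21913 on irradiated and 23166 to 23692 on unirradiated arrays. Single markers went both ways. CD38 (difference -0.42, limma adjusted p 0.0127) and XBP1 (-0.23, 0.0405) were lower and SLAMF7 (0.55, 0.00271) was higher. The others, with the brightest, JCHAIN (-0.12, 0.293), were not called. With 1 array left out the adjusted p reached 0.055 for CD38, 0.117 for XBP1 and 0.0142 for SLAMF7. For the 4 measured of 6 markers of earlier B cells it was 678 to 742 against 496 to 549, most of it from MS4A1, and for the 5 fibroblast markers 243 to 272 against 215 to 224. The 5 T cell markers summed to 192 to 213 against 168 to 190. For the 5 monocyte markers the sum was 1036 to 1092 against 1008 to 1129, most of it from CD68. The median marker was dim in the T cell (5.18), fibroblast (5.44) and monocyte (4.77) lists, below the median of every array. Whether these shifts of the sums play a part in the values below was not tested. A lower value of a transcript can mean fewer cells that carry it or less of it per cell, which cannot be told apart in bulk RNA.

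The whole module was bright in both groups. All 33 members lay above the median gene on every array. By the mean over the 6 arrays, irradiated and unirradiated together, 29 were in the brightest 25% of genes. Mean values over the 6 arrays ran from 7.63 for GAR1 to 11.9 for FBL. Brightness of a probe set depends on its probes as well as on the transcript, so the members are not ranked against each other by it. The median SD of a member within a group was 0.07.

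Among the genes that start ribosomal RNA synthesis, UBTF had log2 values of 9.35, 9.19 and 9.38 in irradiated cells, against 9.89, 9.85 and 9.70 in unirradiated cells. Every irradiated array lay below every unirradiated one, by more than the spread within either group. The log2 difference was -0.51 ± 0.08 (SE), a 1.42-fold decrease with a limma adjusted p of 0.00345, and the call held with each array left out in turn (adjusted p up to 0.0186). POLR1B had values of 8.90, 9.03 and 8.99 in irradiated cells, against 8.42, 8.70 and 8.73 in unirradiated cells. The groups do not overlap, but unirradiated replicate 1 lay well below the other two. The difference was 0.36 ± 0.09 (SE), with a limma adjusted p of 0.0301. Without unirradiated replicate 1 it was 0.26 and the call ended (adjusted p 0.0892), as it did without unirradiated replicate 2 (0.0525) and without irradiated replicates 2 (0.0787) and 3 (0.0663).

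The other Pol I subunits did not pass. The largest subunit, POLR1A, which carries the active site, differed by -0.06 with a 95% interval from -0.21 to 0.09. POLR1C, which Pol I shares with RNA polymerase III (Pol III), differed by -0.14 (interval -0.34 to 0.06), and POLR1E, which binds the enzyme as part of a dissociable pair, by 0.12 (interval -0.06 to 0.29). Of 16 further Pol I subunits and initiation factors, 1 fell and 0 rose, beside 8.18% and 6.35% of all genes. Their median was 0.00. The one that fell was TAF1B, an SL1 subunit that works beside UBTF at the promoter. It had values of 7.32, 7.43 and 7.20 in irradiated cells, against 7.84, 7.90 and 7.96 in unirradiated cells. The difference of -0.58 ± 0.08 (SE), or 66.8% of the unirradiated level, had a limma adjusted p of 0.00131, and the call held with each array left out (up to 0.00774). RRN3, which makes Pol I competent to initiate, had values of 8.75, 8.42 and 8.81 in irradiated cells, against 8.38, 8.39 and 8.29 in unirradiated cells. The groups do not overlap, and irradiated replicate 2 lay close to the unirradiated arrays. Its difference of 0.31 missed the threshold (limma adjusted p 0.0728) and passed without irradiated replicate 2 (0.43, adjusted p 0.0102), so that this list then counted 1 higher. RRN3 also passed after quantile normalization (0.0394), when the dimmest genes were left out (0.0464) and with an intensity trend and a robust prior (0.034). The shared subunit gene POLR2F differed by 0.22 (limma adjusted p 0.0725). It passed when the dimmest genes were left out (0.0409), with an intensity trend and a robust prior (0.0148) and with array weights (0.0487).

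**Figure D2:**
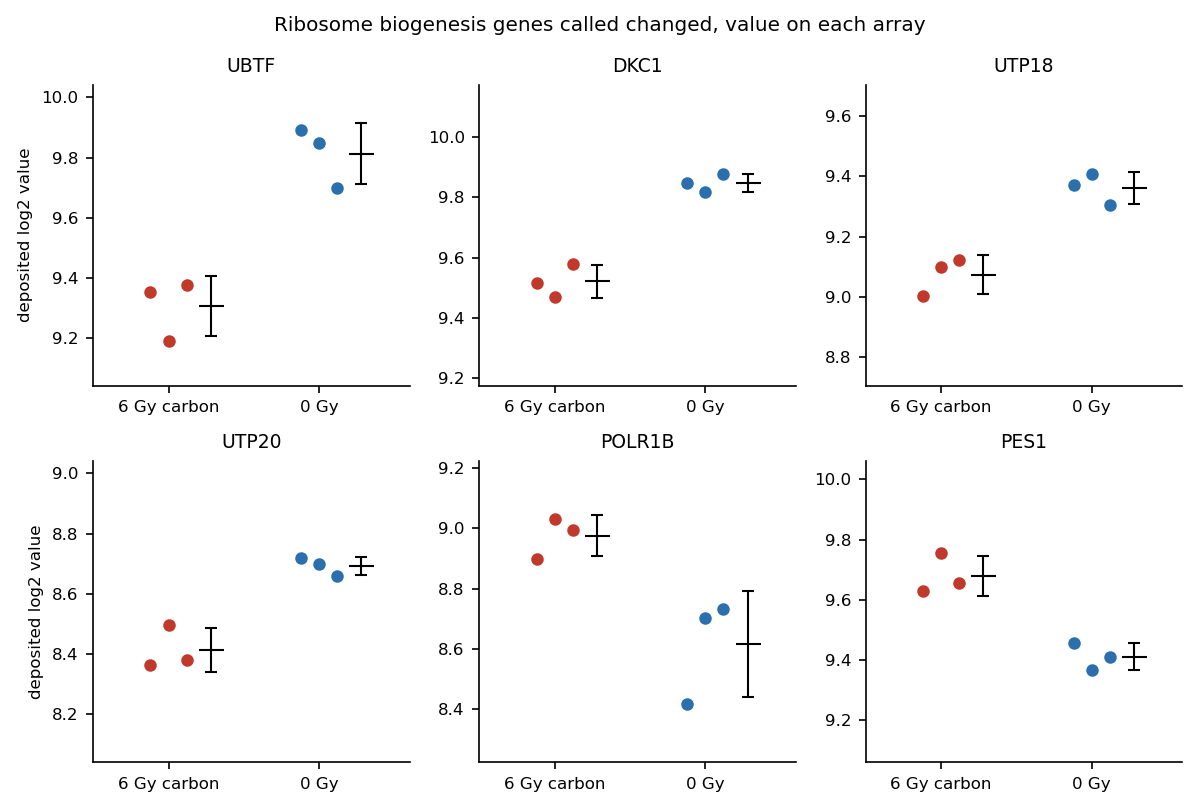
Deposited log2 value of the 6 called members on each of the 3 irradiated arrays (6 Gy carbon, red) and 3 unirradiated arrays (0 Gy, blue), with the mean and SD as a black bar; every panel spans 1 log2 unit, with its axis not starting at 0. The groups do not overlap in any panel, and unirradiated replicate 1 of POLR1B lies apart from the other two.

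Box H/ACA snoRNPs convert uridines of ribosomal RNA to pseudouridine and are built on DKC1, NOP10, NHP2 and GAR1. DKC1, the enzyme itself, was the one of these that passed. Its values were 9.51, 9.47 and 9.58 in irradiated cells, against 9.85, 9.82 and 9.88 in unirradiated cells. The difference of the means, 0.33, was several times the SD within either group (0.05 irradiated and 0.03 unirradiated). The log2 difference was -0.33 ± 0.07 (SE), with a limma adjusted p of 0.0103, and every leave-one-out fit kept the call (up to 0.0403). GAR1 had values of 7.57, 7.54 and 7.53 in irradiated cells, against 7.80, 7.75 and 7.59 in unirradiated cells; the groups do not overlap, but its difference of -0.16 did not pass (limma adjusted p 0.176). NOP10 differed by 0.09 (interval -0.07 to 0.25) and NHP2 by 0.05 (interval -0.17 to 0.26), and differences between the 4 partners were not tested. The second, dimmer probe set of NHP2 gave a difference of 0.08. Box C/D snoRNPs methylate the ribose of ribosomal RNA. Their methyltransferase FBL differed by -0.04 (interval -0.20 to 0.12) and their core protein NOP58 by -0.03 (interval -0.20 to 0.13).

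Factors that assemble these particles went both ways: of 9 measured, 2 rose and 1 fell, and the median was 0.03. Of all genes, 6.35% rose and 8.18% fell. NAF1, which chaperones DKC1 during H/ACA assembly and is later replaced by GAR1, had values of 7.91, 7.83 and 7.67 in irradiated cells, against 7.12, 7.20 and 7.33 in unirradiated cells. It rose by 0.59 ± 0.09 (SE), to 150.4% of the unirradiated level and in the opposite direction to DKC1, with a limma adjusted p of 0.002. PIH1D1, a subunit of the R2TP chaperone complex that serves snoRNP assembly, fell by 0.38 (limma adjusted p 0.00557). NUFIP1, an assembly factor of box C/D particles, rose by 0.32 (limma adjusted p 0.0377). NAF1 and PIH1D1 kept their calls with each array left out. NUFIP1 lost its call without irradiated replicates 1 (adjusted p 0.0896) and 3 (0.0921) and without unirradiated replicates 1 (0.0629) and 2 (0.125), and without irradiated replicate 1 this list counted 2 lower.

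Abundant nucleolar proteins organise the nucleolus and regulate the polymerase. None of the 6 measured passed, although 4 of the 6 differences were below 0 and 2 members, NCL and MYBBP1A, had the largest of them. NCL, encoding nucleolin, had values of 10.91, 10.71 and 10.98 in irradiated cells, against 11.06, 10.97 and 11.09 in unirradiated cells. The groups overlap slightly, and the difference of -0.17 (interval -0.36 to 0.01) had a limma adjusted p of 0.200. MYBBP1A, which binds Pol I and can restrain ribosomal RNA synthesis, had values of 8.97, 8.98 and 8.95 in irradiated cells, against 9.17, 9.12 and 9.09 in unirradiated cells. Its groups do not overlap, and the difference of -0.16 ± 0.06 (SE) had a limma adjusted p of 0.122. NOLC1, a chaperone of snoRNPs, differed by -0.14, the RNA helicase gene DDX21 by 0.05 and LYAR by 0.06. NPM1, encoding nucleophosmin, differed by -0.02 (interval -0.18 to 0.14), and its 3 bright probe sets and 1 dim one, at a mean of 4.88, gave differences from -0.02 to 0.00.

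The small subunit processome is the assembly that forms on the nascent precursor and yields the 40S subunit. Of 9 measured members, 2 fell and 0 rose, where 8.18% of all genes fell and 6.35% rose. UTP18 had values of 9.002, 9.099 and 9.122 in irradiated cells, against 9.371, 9.408 and 9.306 in unirradiated cells, a difference of -0.29 ± 0.07 (SE) with a limma adjusted p of 0.022. UTP20, a large scaffold protein of the particle, had values of 8.36, 8.50 and 8.38 in irradiated cells, against 8.72, 8.70 and 8.66 in unirradiated cells, a difference of -0.28 ± 0.07 (SE) with a limma adjusted p of 0.0246. Both genes are lower on every irradiated array, but both calls lie close to the threshold. That of UTP18 ended without irradiated replicate 1 (adjusted p 0.0743) and without unirradiated replicates 1 (0.0735) and 2 (0.0869). That of UTP20 ended without irradiated replicates 1 (0.0782) and 3 (0.0575) and without unirradiated replicates 1 (0.086), 2 (0.0808) and 3 (0.0512).

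UTP15, a subunit of the same processome that also promotes transcription of ribosomal DNA, pointed the other way. Its values were 9.08, 9.17 and 8.85 in irradiated cells, against 8.52, 8.62 and 8.90 in unirradiated cells, and irradiated replicate 3 lay below unirradiated replicate 3. The difference of 0.35 ± 0.11 (SE) did not pass (limma adjusted p 0.0666), and it passed without irradiated replicate 3 (0.45, adjusted p 0.0342) and without unirradiated replicate 3 (0.47, adjusted p 0.0282). UTP4, in the same subcomplex as UTP15, differed by 0.07 (interval -0.08 to 0.21). RRP9, a component of the U3 snoRNP, lay higher on every irradiated array, with values of 8.60, 8.49 and 8.46 against 8.37, 8.33 and 8.36 in unirradiated cells. Its difference of 0.16 had a limma adjusted p of 0.145. The remaining members differed by -0.16 (NOP14), -0.03 (WDR43), -0.02 (RRP12, which in yeast serves export of both subunits) and 0.13 (BYSL, a late 40S factor), and none passed.

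Of 42 other factors of the small subunit, 4 rose and 2 fell, beside 6.35% and 8.18% of all genes. Their median difference was 0.05. UTP11 rose by 0.39 (limma adjusted p 0.011), NOL6 rose by 0.31 (0.0131) and IMP4, which bridges the U3 RNA and the precursor, fell by 0.28 (0.0224). UTP11 kept its call with each array left out. NOL6 lost it without unirradiated replicate 1 (0.0593), and IMP4 without irradiated replicates 1 (0.0569) and 3 (0.055) and unirradiated replicates 1 (0.0793) and 2 (0.0857). With 1 array left out the count of this list ran from 1 to 3 higher and from 0 to 2 lower, with 1 higher and 0 lower without unirradiated replicate 1 and 2 higher and 0 lower without unirradiated replicate 2. Without irradiated replicate 1 it was 2 and 1, without unirradiated replicate 3 the risers were 2, and without irradiated replicate 2 the genes that were lower were 1.

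For the 60S subunit, 1 of 7 members rose and 0 fell, where 6.35% of all genes rose and 8.18% fell. PES1, BOP1 and WDR12 form the PeBoW complex, which is needed to process the precursor of the 28S RNA. PES1 had values of 9.63, 9.75 and 9.66 in irradiated cells, against 9.46, 9.37 and 9.41 in unirradiated cells. It rose by 0.27 ± 0.07 (SE), with a limma adjusted p of 0.0284. The call ended without irradiated replicate 2 (adjusted p 0.0843) and without unirradiated replicates 1 (0.062), 2 (0.104) and 3 (0.0728). Its partners did not pass: BOP1 differed by 0.06 (interval -0.08 to 0.20) and WDR12 by -0.09 (interval -0.27 to 0.08). BOP1 lay slightly higher on every irradiated array by its brighter probe set, and by its second probe set the groups overlapped with a difference of 0.01.

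NIP7, a 60S assembly factor in yeast, had values of 10.29, 10.22 and 10.43 in irradiated cells, against 10.11, 10.11 and 10.11 in unirradiated cells. The groups do not overlap, and the difference of 0.20 ± 0.07 (SE) had a limma adjusted p of 0.098. NOP2, which methylates a cytosine of the 28S RNA, also lay higher on every irradiated array, with values of 8.63, 8.59 and 8.54 against 8.51, 8.44 and 8.43 in unirradiated cells, a difference of 0.12 (limma adjusted p 0.239). NOP16 differed by -0.12 and RRS1, which helps bring the 5S particle into the precursor, by -0.07, neither past the test. Of 41 other 60S factors, 2 rose and 4 fell, beside 6.35% and 8.18% of all genes, with a median of 0.02. RSL24D1, which occupies the place of a ribosomal protein in the precursor, fell by 0.37 (limma adjusted p 0.00632), NOP53, which in yeast recruits the RNA exosome, fell by 0.32 (0.0127) and the helicase gene DDX27 fell by 0.37 (0.0184). RSL24D1 kept its call with each array left out. NOP53 lost it without unirradiated replicate 1 (0.0572) and DDX27 without unirradiated replicates 1 (0.0635) and 2 (0.0626). This list counted 0 higher without irradiated replicate 1 or unirradiated replicate 2, and 1 higher without any other array. It counted 1 to 5 lower, with 1 without unirradiated replicate 1 and 2 without unirradiated replicate 2.

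Together, the 108 further genes of these 4 lists counted 8 higher and 8 lower, which is 14.8% of them, with a median of 0.02. That share is close to the 14.5% of all genes. Of the ribosomal proteins themselves, 2 of 57 cytosolic ribosomal protein genes (3.51%) were lower and 0 higher, with a median of -0.04, and of 73 mitochondrial ribosomal protein genes 2 were higher and 2 lower (5.48%), with a median of 0.02. The difference between these shares was not tested. The 3 cytosolic genes with the smallest p were RPS21 (-0.31, limma adjusted p 0.0155), RPS24 (-0.39, 0.0198) and RPS13 (-0.21, 0.073), and the mitochondrial ones MRPL27 (-0.30, 0.0181), MRPL50 (0.29, 0.0237) and MRPS30 (0.26, 0.0351). These counts shifted when single arrays were left out. The cytosolic list counted 0 lower without irradiated replicate 1 or unirradiated replicate 2, and 1 lower without irradiated replicate 3 or unirradiated replicate 1 or 3. The mitochondrial list counted 0 higher without irradiated replicate 1 or unirradiated replicate 2 or 3, 1 higher without irradiated replicate 2 or unirradiated replicate 1, and 4 higher without irradiated replicate 3. It counted 0 lower without irradiated replicate 1 or unirradiated replicate 1, and 1 lower without unirradiated replicate 2 or 3. The adjusted p of the called genes reached 0.0577 (RPS21), 0.0731 (RPS24), 0.0761 (MRPL27), 0.0791 (MRPL50) and 0.112 (MRPS30) in these fits. The second mitochondrial gene called lower, MRPL58, named after its values were seen, differed by -0.31 with a limma adjusted p of 0.0497. Its call ended without irradiated replicates 1 (0.0793) and 3 (0.104) and without unirradiated replicates 1 (0.112), 2 (0.124) and 3 (0.121), after quantile normalization (0.0528) and after subtraction of array medians (0.0552). RPS13 passed when the dimmest genes were left out (0.0403), with an intensity trend and a robust prior (0.00528) and with array weights (0.0483).

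**Figure D3:**
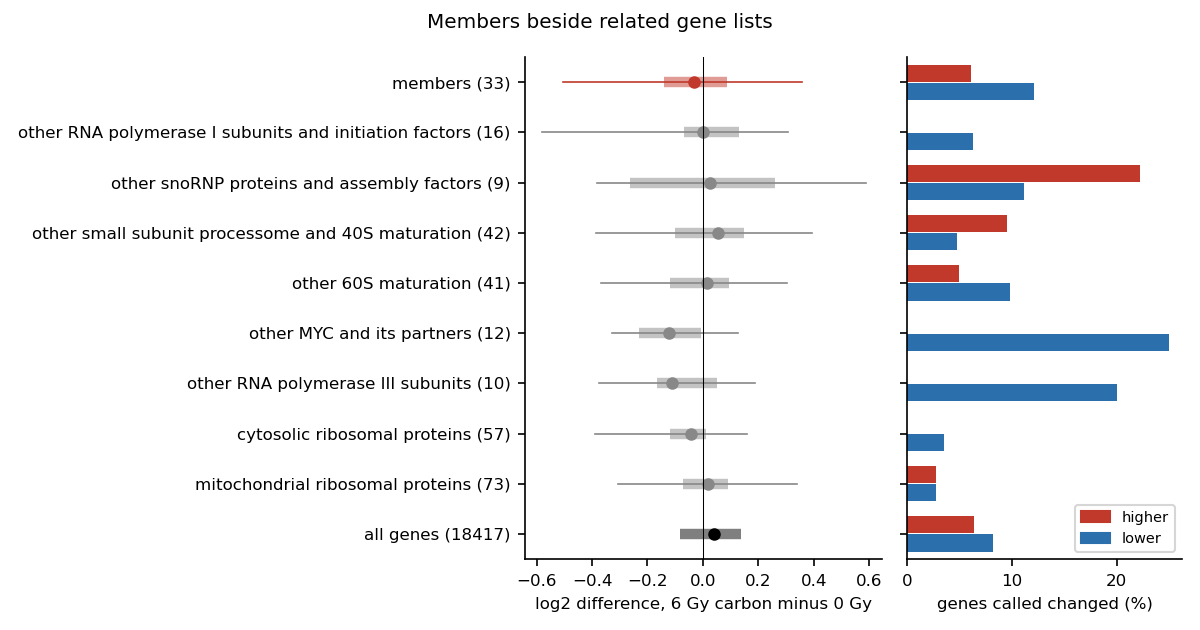
Left, log2 difference of the members (red) and of related lists (grey), with a dot at the median, a thick bar from the lower to the upper quartile and a thin line from the lowest to the highest gene; the thin line is left out for all genes (black). Right, percent of each list called higher (red) or lower (blue) by limma, with the number of genes measured in brackets. The members' median of -0.03 lies near that of all genes at 0.04, and 12.1% of them were called lower.

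MYC activates many genes of this module together with its partner MAX. MYC had values of 12.54, 12.63 and 12.56 in irradiated cells, against 12.91, 12.88 and 12.91 in unirradiated cells, and fell to 79.8% (difference -0.33 ± 0.06, SE, limma adjusted p 0.00918). The call held with each array left out. MAX differed by 0.13 (limma adjusted p 0.204). MGA, which binds MAX in a repressive complex, fell by 0.27 (0.0206) and MXI1, another MAX partner that opposes MYC, fell by 0.28 (0.0469). They were among 3 of 12 genes of this network that fell, and 0 rose, where 8.18% of all genes fell and 6.35% rose. MGA lost its call without irradiated replicate 1 (0.0542) and without unirradiated replicates 1 (0.0793) and 3 (0.0592), and MXI1 without any 1 of the 6 arrays (up to 0.143), after quantile normalization (0.132), after subtraction of array medians (0.0577) and with array weights (0.0524). This list counted 1 lower without irradiated replicate 1 or unirradiated replicate 1 or 3. Of 10 genes for Pol III subunits, which are not shared with Pol I, 2 fell and 0 rose, beside the same 8.18% and 6.35% of all genes. POLR3GL fell by 0.31 (0.0302) and POLR3F by 0.37 (0.0308). POLR3A differed by 0.19 (0.0802), which passed after quantile normalization (0.0266) and when the dimmest genes were left out (0.0433). Both calls of Pol III genes ended without unirradiated replicate 1 (0.0835 for POLR3GL, 0.083 for POLR3F), without unirradiated replicate 2 (0.113 and 0.111) and without irradiated replicate 3 (0.0786 and 0.0827). That of POLR3GL also ended without irradiated replicate 2 (0.0813) and that of POLR3F without irradiated replicate 1 (0.0627).

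The E-box letters were common near the starts of these genes. RefSeq promoter windows, from 250 bases before to 50 after a start, were found for 30 of the 36 listed genes, with 38 starts in all. CACGTG, which reads the same on both strands, stood in a window of 16 of the 30 genes (53.3%), against 10.9% of 15843 protein-coding genes. Of its 18 occurrences, 8 began before the start and 10 after it. The windows end 50 bases after the start, so those 10 could not lie farther away. CCGGAA on either strand was held by 16 genes (53.3%), against 26.6% of protein-coding genes, and CCAAT on either strand by 13 (43.3%), against 42.1%. These 3 motifs do not contain one another. The small subunit members held the E-box letters most often, 7 of 8 genes, and their windows are set out here, with CACGTG in capitals and 10 bases on each side in lower case, on GRCh38.p14.
UTP4, chr16:69132623-69132648, plus strand: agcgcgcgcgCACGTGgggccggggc
UTP18, chr17:51260447-51260472, plus strand: gagtgctggtCACGTGgcaagaggct
UTP18, chr17:51260540-51260565, plus strand: agcgaggttcCACGTGagcgcctgcg
UTP20, chr12:101280085-101280110, plus strand: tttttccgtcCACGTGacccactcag
RRP9, chr3:51941894-51941919, minus strand: gttcagctgcCACGTGagttctgcgg
WDR43, chr2:28894660-28894685, plus strand: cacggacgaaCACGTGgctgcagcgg
NOP14, chr4:2963376-2963401, minus strand: cgcggcccggCACGTGtcttagggta
BYSL, chr6:41921517-41921542, plus strand: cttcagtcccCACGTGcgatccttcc
Apart from the hexamer the flanks differ from gene to gene. Of the other listed genes with a window, 4 of 6 for nucleolar proteins, 2 of 4 for H/ACA proteins, 1 of 2 for C/D proteins, 2 of 6 for 60S factors and 0 of 4 for Pol I with UBTF held the letters. Among genes outside the list, 13 of 37 small subunit factors, 11 of 38 factors of the 60S subunit and 4 of 62 cytosolic ribosomal protein genes did.

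Members with and without the letters were called in both directions, and the difference between them was not tested. Of the 15 measured members with them, 1 rose (PES1) and 2 fell (UTP18 and UTP20), with a median difference of 0.05. Of 12 with a window but without them, 1 rose (POLR1B) and 2 fell (UBTF and DKC1), with a median of -0.08. These letters were searched by sequence alone, and a match is no evidence of binding in these cells.

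**Figure D4:**
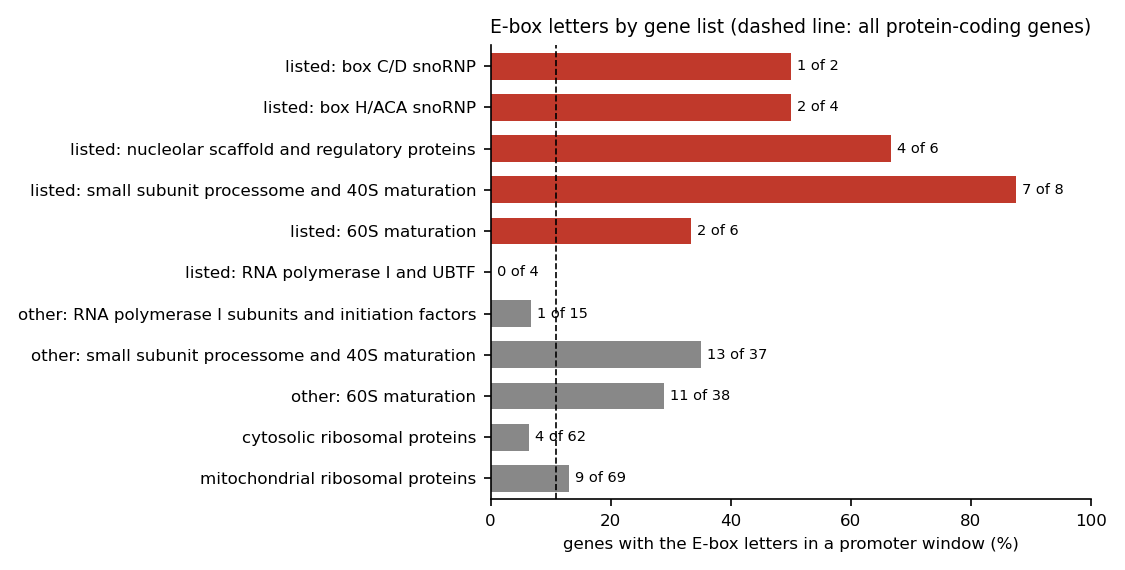
Percent of genes in each list with the E-box letters in at least 1 promoter window, with the number of such genes and of genes with a window; red bars are the listed genes by role, including those not measured on the array, and grey bars are related lists. The dashed line marks the 10.9% of all protein-coding genes; the small subunit members lie highest at 87.5%, and the bar of Pol I and UBTF is at 0.

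Several of these genes carry small nucleolar RNAs (snoRNAs) inside them, which guide snoRNPs to the sites they modify. RefSeq places 25 snoRNA genes within 8 of the 36 listed genes, by position, since the table used gives no strand. Of these, 7 have a probe set of their own, within 4 genes. Of the 7, 2 fell and 0 rose, where 8.18% of all genes were lower and 6.35% higher. SNORA75, inside NCL, had values of 6.07, 6.07 and 5.93 in irradiated cells, against 6.82, 6.79 and 6.78 in unirradiated cells. It fell to 58.3% of the unirradiated level (difference -0.78 ± 0.07, SE, limma adjusted p 1.33e-04), and the call held with each array left out, while NCL differed by -0.17. SNORD53, inside WDR43, had values of 8.34, 8.57 and 8.36 in irradiated cells, against 8.72, 8.77 and 8.76 in unirradiated cells. Its difference was -0.32 ± 0.08 (SE, limma adjusted p 0.0238), while WDR43 differed by -0.03. The SNORD53 call ended without any 1 array other than irradiated replicate 2 (adjusted p up to 0.0807).

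The other snoRNAs inside members did not pass. Inside NCL, SNORD82 differed by -0.35 with a wide interval from -0.81 to 0.11, and SNORD20, dim at 2.57 in irradiated and 2.71 in unirradiated cells, by -0.14. Inside NOP56, SNORA51 differed by -0.16 and SNORD57 by 0.02 (interval -0.16 to 0.20), and inside PPAN, SNORD105 differed by -0.23 (limma adjusted p 0.128). A snoRNA probe set can also read the unspliced transcript around it, and the difference between a snoRNA and its surrounding gene was not tested. Of 18 small RNAs known to guide cleavage or folding of ribosomal RNA, 5 had a probe set. SNORA62 fell by 0.89 with scattered irradiated values of 5.94, 6.49 and 5.36, against 6.68, 7.08 and 6.69 in unirradiated cells (limma adjusted p 0.0314). Its call ended without irradiated replicate 1 (0.0664) and without unirradiated replicates 1 (0.063), 2 (0.108) and 3 (0.0635). It also ended with an intensity trend and a robust prior (0.0532). RMRP, the RNA of the enzyme RNase MRP, differed by -0.12 and SNORD14E by 0.01, and neither passed.

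**Figure D5:**
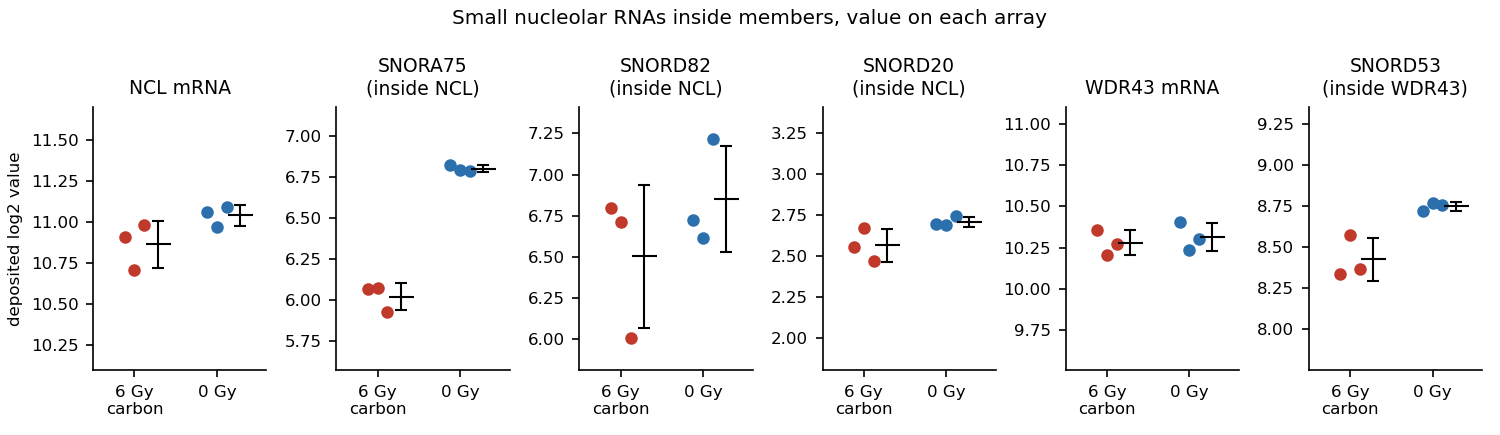
Deposited log2 value on each irradiated (6 Gy carbon, red) and unirradiated (0 Gy, blue) array for NCL and the 3 snoRNAs inside it and for WDR43 and SNORD53 inside it, with the mean and SD as a black bar; every panel spans the same number of log2 units and no axis starts at 0. SNORA75 is lower on all 3 irradiated arrays by 0.78, whereas the values of NCL and WDR43 overlap between the groups.

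For the 27 members that did not pass, the intervals set limits. For 26 of them the 95% interval of the log2 difference lay within 0.5 of 0 on both sides, and the exception was UTP15. The same held for 30 of all 33 members, so this limit does not set the uncalled genes apart from the called ones. Among the uncalled members, the intervals of UTP15, NIP7, MYBBP1A and RRP9 left out 0. Over all 33 members, 14 differences were smaller than 0.1 in size and 26 smaller than 0.25. At an unadjusted limma p under 0.05 there were 10 members, or 30.3% of them, against 29.8% of all genes. With 1 array left out, 2 to 4 members were called lower and 0 to 2 higher: 0 were higher without irradiated replicate 2 or unirradiated replicate 1 or 2, and 2 were lower without irradiated replicate 1 or unirradiated replicate 1 or 2.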

How the data were processed

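Per the labels' protocols, Trizol served to extract the RNA, which was then biotin-labelled. The deposited table holds 33297 probe sets on 6 arrays, and the authors' deposited values were read as log2 intensities from their range of about 1.66 to 14.0; no source used here states the scale, the normalization or a detection call, so every fold rests on that reading. Scaling between arrays would remove a shift shared by all transcripts. Platform annotation gave 1 symbol to 19460 probe sets, several to 1754 and none to 12083; 19429 of the 19460 matched RefSeq by Entrez ID.

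Irradiated and unirradiated arrays were compared with limma 3.58.1 (lmFit, eBayes, two-sided, no covariate, no filter) in R 4.3.3 on all 18417 genes, with Benjamini-Hochberg adjustment over all of them. On simulated data of 18417 genes this comparison recovered 6% of changes of 0.25, 60% of 0.5 and 96% of 1 on the log2 scale. The simulation changed far fewer genes than the 2676 called in these data. Its adjusted threshold was therefore stricter, and these percentages do not give the share of changes found here. An exact permutation test of 3 arrays against 3 cannot go below 0.1, and none was run. Tables were made in Python 3.11.15 with pandas 2.3.3 and figures with matplotlib 3.10.9. Promoter sequences are RefSeq's on GRCh38.p14.

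The members and lists were chosen with earlier results of these data known. All members were named, with the 3 genes of smallest p of each other list, MYC, MAX, RRN3 and every snoRNA inside a member that had a probe set. The array number limits precision.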

Additional observations from a re-analysis of the deposited data

How the results depend on the processing

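A replicate block on the sample number gave 1919 called genes, where 2676 were called without it, and among the members 1 was higher (POLR1B) and 2 lower (UBTF and DKC1). The numbers are not known to pair the samples: deviations of same-numbered arrays from their group means correlated at -0.04, 0.10 and -0.11. At an adjusted p under 0.01, 1077 genes were called and 0 members were higher and 1 lower (UBTF). An intensity trend with a robust prior called 4 members higher (NIP7 and UTP15 beside POLR1B and PES1) and raised the calls over all genes to 3237. Leaving out 1 array gave 1471 to 2184 calls over all genes, 0 to 2 members higher and 2 to 4 lower, and a members' median from -0.06 to -0.02, with UBTF and DKC1 called in all 6 of these fits. Leaving out the dimmest genes (the lowest 1 in 3), which kept all 33 members, quantile normalization, subtraction of array medians, array weights and the mean of all probe sets each left the 6 members' calls in place; UTP15 was called also without the dim genes (adjusted p 0.043) and with array weights (0.027).

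Among the members and their snoRNAs, signs turned for differences near 0. By quantile normalization NPM1 was 0.0146 and RRP12 0.0152. With 1 array left out NOP58 ran from -0.0715 to 0.0254, NHP2 from -0.028 to 0.136, NPM1 from -0.0733 to 0.0261, LYAR from -0.00227 to 0.131, DDX21 from -0.00566 to 0.0975, WDR43 from -0.0745 to 0.0111, RRP12 from -0.0472 to 0.00905 and SNORD57 from -0.0388 to 0.0925; the cause was not tested. The number of arrays, with a median SE of 0.08, limits what can be seen.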
